A study of Mus musculus with 16 samples.

Results

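To ask which R-loops of Xpo4 knockout (KO) cells were left once linear RNA had been digested, the peak lists of 4 DNA:RNA hybrid immunoprecipitation (DRIP-seq) libraries were compared. They were 2 KO replicates without RNase R (RNase R-) and 2 with it (RNase R+), 4 of the 8 lists analysed in a series of 16 samples, and they held 70618 of the 77297 peaks. The cells were NIH/3T3, a mouse embryonic fibroblast line, in which the nuclear export receptor gene Xpo4 (exportin 4) was disrupted with CRISPR-Cas9. The KO is 1 cell line, so its effect cannot be told apart from that of the line. Genomic DNA of both groups was cut by a mix of 4 enzymes, MseI, DdeI, AluI and MboI, and received E. coli DNA. It was then incubated for 1.5 h with 10 U of RNase R or with its buffer alone, and hybrids were pulled down with the antibody S9.6. Wild type (WT) cells treated alike, with 2 replicates per treatment, served as comparison. Nothing in the labels says that the replicates came from separate cultures, so p-values measure the spread between these samples, which may be technical. Peak lists of pulled-down DNA hold no RNA level and do not check the knockout, and in a bulk population fewer cells with a hybrid and fewer hybrids per cell cannot be told apart.

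An R-loop is a hybrid of RNA with 1 strand of the DNA, with the other DNA strand displaced. Most R-loops form behind RNA polymerase, when the nascent transcript pairs with its template, and they favour GC-rich and purine-rich transcripts. RNase R degrades linear RNA from its 3′ end and spares circular RNA, whose ends are joined by back-splicing. Peaks without RNase R are therefore called R-loops in the study's terms, those after it ciR-loops, and the R-loops absent after it liR-loops.

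Each peak was followed between same-numbered lists. An RNase R- peak was called kept if it overlapped an RNase R+ peak by at least 1 bp, and lost otherwise. An RNase R+ peak that overlapped no RNase R- peak was called new. To use both replicates, the peaks of all 4 lists were also merged into 47485 regions. A kept region held a peak in all 4 lists, a lost region in both RNase R- lists and no RNase R+ list, and a new region in both RNase R+ lists and no RNase R- list. Lost means that no peak was called, not that no hybrid was there. The lowest summit height of a called peak was 7 fragments in each RNase R- list and 8 in each RNase R+ list, and the background levels lay close together (0.843 and 0.896 fragments per position without, 0.924 and 0.890 with RNase R).

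The DNA under a strong region of each fate is shown first, in a gene and outside genes, to let the fates be compared by their letters. Each sequence is the 240 bases around the summit on the plus strand of GRCm38, 5′ to 3′, with the longest run of purines or of pyrimidines in capitals. Each is the strongest by its lowest fold after leaving out untranslated regions and windows with unknown bases in the genome, the latter of which passed over a stronger lost region outside genes (22.8 and 22.2).
Cdk8, kept, chr5:146261046-146261285: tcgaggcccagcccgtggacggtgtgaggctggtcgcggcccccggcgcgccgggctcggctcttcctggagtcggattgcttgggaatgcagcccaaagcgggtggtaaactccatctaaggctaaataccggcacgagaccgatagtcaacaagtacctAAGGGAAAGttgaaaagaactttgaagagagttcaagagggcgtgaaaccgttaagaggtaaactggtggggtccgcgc
Outside genes, kept, chr11:109011767-109012006: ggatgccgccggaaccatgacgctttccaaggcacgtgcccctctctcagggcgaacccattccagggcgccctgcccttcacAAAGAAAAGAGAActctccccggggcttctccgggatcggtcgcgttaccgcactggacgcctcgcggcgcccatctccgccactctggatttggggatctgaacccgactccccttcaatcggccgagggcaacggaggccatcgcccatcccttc
Zfp36l1, lost, chr12:80111101-80111340: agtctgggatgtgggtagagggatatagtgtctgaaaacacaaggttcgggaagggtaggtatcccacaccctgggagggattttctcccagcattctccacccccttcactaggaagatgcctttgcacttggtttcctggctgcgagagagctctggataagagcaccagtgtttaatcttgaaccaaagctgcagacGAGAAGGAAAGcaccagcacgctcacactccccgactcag
Outside genes, lost, chrX:21848273-21848512: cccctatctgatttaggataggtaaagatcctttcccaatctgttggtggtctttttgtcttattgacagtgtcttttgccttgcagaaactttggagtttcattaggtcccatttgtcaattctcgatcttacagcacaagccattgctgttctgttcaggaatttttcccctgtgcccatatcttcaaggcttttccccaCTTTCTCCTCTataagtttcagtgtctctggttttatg
9130204K15Rik, newly called, chr11:79791057-79791296: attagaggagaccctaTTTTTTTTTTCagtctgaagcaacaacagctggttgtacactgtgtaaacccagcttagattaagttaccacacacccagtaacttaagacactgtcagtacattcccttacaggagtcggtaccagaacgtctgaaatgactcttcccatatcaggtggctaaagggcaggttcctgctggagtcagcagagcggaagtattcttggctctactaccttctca
Outside genes, newly called, chr1:3765245-3765484: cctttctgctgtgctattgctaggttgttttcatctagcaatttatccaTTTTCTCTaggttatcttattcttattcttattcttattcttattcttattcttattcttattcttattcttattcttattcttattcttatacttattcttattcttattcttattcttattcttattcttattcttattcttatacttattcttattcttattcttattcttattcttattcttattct
In these 6 windows the longest run was between 8 and 13 bases. The kept windows held 57.9% and 64.6% G and C. The lost windows held 52.5% and 41.3%, and the new windows 45.0% and 22.1%. Whether the kept windows hold copies of ribosomal RNA sequence was not tested, so these single windows may not stand for their fates.

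A second set shows the simple tracts that separated the fates, as described further on, with 160 bases around the summit and the tract in capitals. For Nav2 it is the longest run of A, for Sdk2 and 9130401M01Rik the longest run of purines or pyrimidines, for S100a11 the GGA repeat, and for Fam71e2 the CA repeat. Each is a strong region in a gene, picked within a given fate for holding a given tract. The pairing of tract and fate was thus set by the choice.
Nav2, lost, chr7:49272175-49272334: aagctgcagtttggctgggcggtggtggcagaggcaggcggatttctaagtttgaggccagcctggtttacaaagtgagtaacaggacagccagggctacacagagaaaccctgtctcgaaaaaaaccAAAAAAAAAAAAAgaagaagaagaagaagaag
Sdk2, lost, chr11:113808953-113809112: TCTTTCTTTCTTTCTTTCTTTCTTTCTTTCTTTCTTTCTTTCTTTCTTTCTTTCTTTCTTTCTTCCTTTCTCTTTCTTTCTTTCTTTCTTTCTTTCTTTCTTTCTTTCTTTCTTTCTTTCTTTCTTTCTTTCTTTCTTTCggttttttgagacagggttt
S100a11, kept, chr3:93524500-93524659: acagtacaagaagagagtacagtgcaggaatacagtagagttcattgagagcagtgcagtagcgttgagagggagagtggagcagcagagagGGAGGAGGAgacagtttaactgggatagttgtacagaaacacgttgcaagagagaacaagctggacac
9130401M01Rik, kept, chr15:58026135-58026294: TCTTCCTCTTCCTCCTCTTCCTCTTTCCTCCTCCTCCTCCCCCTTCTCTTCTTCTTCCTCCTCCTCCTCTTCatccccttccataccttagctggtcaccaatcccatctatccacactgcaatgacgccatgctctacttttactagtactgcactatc
Fam71e2, newly called, chr7:4755997-4756156: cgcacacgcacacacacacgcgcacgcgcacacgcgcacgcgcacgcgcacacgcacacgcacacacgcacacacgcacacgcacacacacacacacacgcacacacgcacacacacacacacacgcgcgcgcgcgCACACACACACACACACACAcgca
The run of A was 13 bases long at Nav2, which was lost, and the window also held a GAA repeat. At Sdk2, also lost, 140 bases in a row were pyrimidines, in a repeat that reads AAAG on the other strand. S100a11 and 9130401M01Rik, with copies of GGA, were kept. Fam71e2, with 20 bases of alternating C and A, was newly called.

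In replicate 1, 3453 of 26219 RNase R- peaks (13.2%) were kept and 22766 were lost. In replicate 2, 3425 of 32031 (10.7%) were kept and 28606 were lost. For comparison, 54.3% of the peaks of RNase R- replicate 1 were found again in RNase R- replicate 2, and 44.4% the other way round. The kept share was thus below what the other untreated library gave, but the 2 shares are not alike in what they can reach. The RNase R+ lists held only 6372 and 5996 peaks, which limits how many RNase R- peaks could be kept. Of these RNase R+ peaks, 36.8% and 39.2% were found again in the other RNase R+ list. The part of list size in the kept share was not tested. The log2 ratio of peak numbers, RNase R+ over RNase R-, was -2.04 in replicate 1 and -2.42 in replicate 2, with a mean of -2.23 (exact permutation test, two-sided, n = 2 per group, p = 0.33, the smallest that the 6 arrangements allow).

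Many lost peaks had been called in 1 untreated library only. Of the lost peaks, 50.1% in replicate 1 and 40.8% in replicate 2 were found again in the other RNase R- list. Of the kept peaks, 82.4% and 74.6% were. The RNase R+ lists also held peaks that were absent without RNase R, 2907 of 6372 (45.6%) in replicate 1 and 2541 of 5996 (42.4%) in replicate 2. These new peaks were found again in the other RNase R+ list in 21.9% and 21.2% of cases, compared with 49.4% and 52.4% of the RNase R+ peaks that were shared. New peaks were the weaker ones, with a median fold enrichment of 6.24 and 6.35, compared with 7.28 and 7.41 at shared peaks. Median peak widths were 248 and 255 bp without RNase R and 284 and 279 bp with it.

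Whether a peak was kept followed its fold enrichment, which divides the height at the summit by the expected level. Kept RNase R- peaks had a median of 8.27 and 8.44 in the 2 replicates, and lost peaks of 6.66 and 6.76. Below a fold of 5, 6.89% and 5.37% were kept. Between 10 and 15 it was 28.0% and 22.1%, and between 20 and 30 it was 84.7% and 79.7%. At a fold of 30 or more, 72 of 73 peaks (98.6%) and 70 of 74 (94.6%) were kept. Recovery in the other RNase R- list also followed fold, but started higher. It was 37.8% and 27.7% below 5, 79.9% and 69.0% between 10 and 15, and 100% in both lists at 30 or more. The gap between the 2 kinds of recovery was therefore widest at intermediate folds and nearly closed at the strongest peaks. In the other direction, 60.6% and 57.1% of RNase R+ peaks below a fold of 5 were new, compared with 19% and 18.2% between 10 and 15, and 1 of 57 and 0 of 52 at 30 or more.

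**Figure D1:**
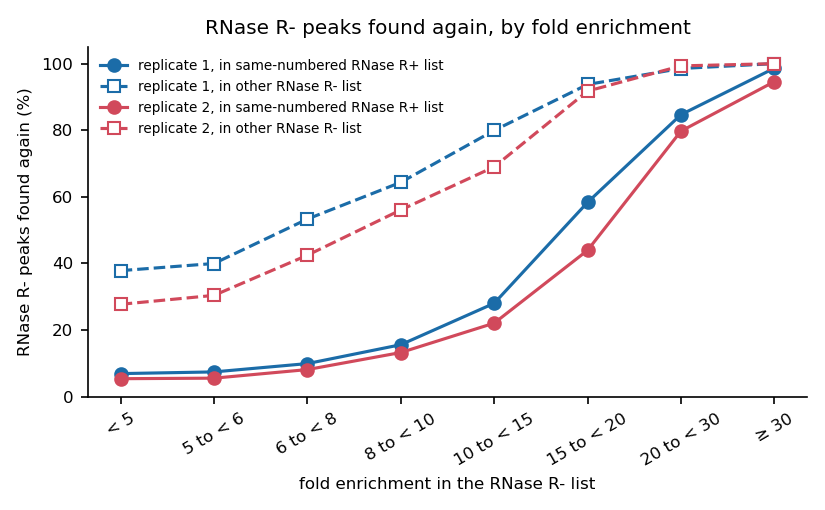
Share of KO RNase R- peaks found again (%) by their fold enrichment, with filled circles and solid lines for the same-numbered RNase R+ list, open squares and dashed lines for the other RNase R- list, and 1 colour per replicate. Below a fold of 5, 6.89% and 5.37% of peaks were kept after RNase R, and at 30 or more 98.6% and 94.6% were.

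At peaks that were kept, the fold enrichment was on balance slightly lower after RNase R. The median log2 of the RNase R+ fold over the RNase R- fold was -0.16 in replicate 1 (quartiles -0.51 and 0.17) and -0.18 in replicate 2 (quartiles -0.57 and 0.18). It was above 0 at 37.8% and 38.3% of kept peaks. A drop of more than 1 log2 unit was seen at 220 peaks (6.37%) and 271 peaks (7.91%), and a gain of that size at 46 and 48 peaks. Peaks that were no longer called cannot enter this ratio, so it describes the peaks left after RNase R and not the effect on all peaks.

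Promoters, defined as positions within 1000 bp of a transcript start, and exons outside them had higher kept shares than introns and DNA outside genes. Of promoter peaks, 21.8% were kept in replicate 1 and 14.2% in replicate 2. Of exon peaks, 22.1% and 14.3% were kept. Introns had 12.3% and 9.81%, and DNA outside genes 11.2% and 10.4%. Among parts of genes irrespective of promoters, coding exons were highest, with 29.5% and 17.5%. In both replicates promoters and exons thus lay above introns and DNA outside genes. New calls had the opposite order. They made up 29.4% and 27.9% of RNase R+ peaks in promoters and 21.6% and 16.7% in exons, but 48.9% and 44.9% in introns and 50.2% and 45.6% outside genes.

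**Figure D2:**
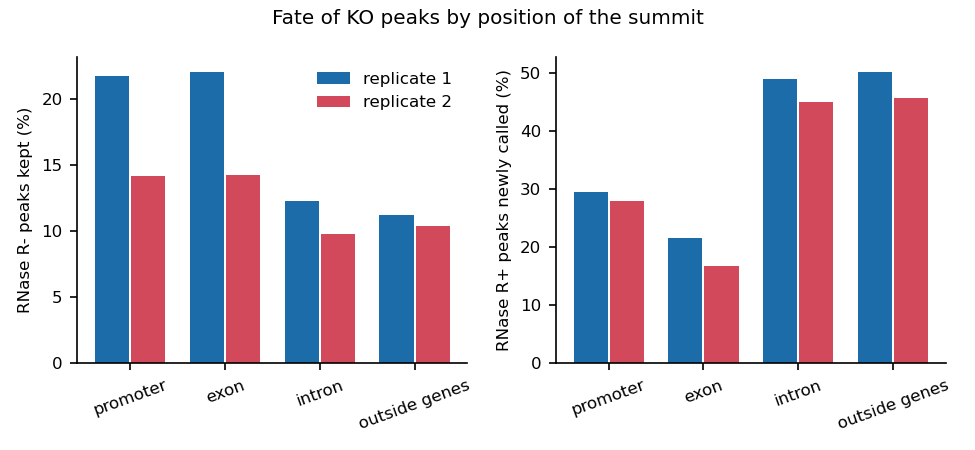
Left, share of KO RNase R- peaks that were kept (%) by the position of the summit. Right, share of KO RNase R+ peaks that were newly called (%). Bars stand for single libraries, 1 colour per replicate. Kept shares were highest at promoters (21.8% and 14.2%) and exons (22.1% and 14.3%), and new shares were lowest there.

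Among peaks of like fold the difference depended on the fold and, in part, on the replicate. Between folds of 10 and 15, 41.7% and 26.9% of promoter peaks and 46.9% and 32.8% of exon peaks were kept, compared with 27.0% and 21.8% in introns and 22.6% and 19.8% outside genes. Between 8 and 10, promoters had 23.8% against 13.6% outside genes in replicate 1, but 14.0% against 13.6% in replicate 2, so there the difference rested on replicate 1. Exons at that fold had 24.8% and 11%. In replicate 2 promoters lay below DNA outside genes at folds below 5 (4.85% and 6.31%), from 5 to 6 (5.68% and 6.20%) and from 6 to 8 (7.79% and 8.27%). Promoters were also lower there from 20 to 30, by little (51 of 64 and 36 of 45 peaks), and at 30 or more (27 of 30 and 18 of 18 peaks). As shares of a list, promoter summits made up 10.6% and 10.3% of RNase R- peaks and 13.4% and 11.2% of RNase R+ peaks. The mean difference was 1.87 percentage points (exact permutation test, two-sided, n = 2 per group, p = 0.33), and the groups did not overlap. It was 2.88 points in replicate 1 and 0.859 in replicate 2, 3.38 among peaks with a fold of 10 or more (exact permutation p = 0.67). When protein-coding genes alone defined promoters it was 0.644, with 1.68 in replicate 1 and -0.39 in replicate 2 (exact permutation p = 1), and in both settings the groups overlapped. Exons (3.85% and 3.96% on average, exact permutation p = 1), introns (38.4% and 37.5%, p = 0.33) and DNA outside genes (47.3% and 46.2%, p = 1) differed by less, and exons and DNA outside genes took the opposite sign without replicate 1 (-0.28 and 1.1 points).

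By gene type, pseudogenes had the highest kept share of the larger types, with 22.8% of 219 peaks and 14.4% of 250. Protein-coding genes had 14.8% and 10.8%, and long noncoding RNA genes 13.0% and 10.9%. By chromosome, X was lowest in both replicates (7.05% and 4.48%), followed by chromosome 10 (7.84% and 7.48%). Chromosome 17 was the highest autosome in replicate 1 (17.0%) and chromosome 6 in replicate 2 (13.2%). On Y, 23 of 30 and 18 of 34 peaks were kept. The median fold without RNase R was low on X (5.97 and 5.85) and chromosome 10 (6.51 and 6.40) and high on Y (10.8 and 9.51). The part of fold in the differences between chromosomes was not tested.

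Regions called in both replicates gave the most reliable fates. Of the 14181 regions in both RNase R- lists, 1524 were kept (10.7% of these regions) and 10330 were lost (72.8%), and 2327 had a peak in 1 RNase R+ list. Of the 2322 regions in both RNase R+ lists, 359 were new (15.5%). By class, 16.8% of promoter regions and 17.5% of exon regions were kept, compared with 9.58% of introns and 9.34% outside genes. The new share was 9.66% and 6.77% in promoters and exons, and 17.6% and 17.1% in introns and outside genes. As in the single lists, promoters and exons had the higher kept and the lower new shares, while introns and DNA outside genes lay close to each other.

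At the level of genes, 5869 genes overlapped a region in both RNase R- lists. A kept region was held by 948 of these genes (16.2%). No region in both RNase R+ lists was found in 4777 (81.4%), and no region in any RNase R+ list in 3154 (53.7%). Conversely, 1281 genes overlapped a region in both RNase R+ lists. Of these, 1092 (85.2%) also had a region in both RNase R- lists, and 47 (3.67%) had none in any RNase R- list. Genes with ciR-loops were thus for the most part genes with R-loops, while most R-loop genes had no reproducible ciR-loop.

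The strongest kept regions in genes differed by little between the treatments. Fold enrichments are given for RNase R- replicates 1 and 2 and then RNase R+ replicates 1 and 2. In an untranslated exon of Lars2, the mitochondrial leucyl-tRNA synthetase, they were 204, 242, 244 and 268 (chr9:123461582-123462205), with both RNase R+ values the higher. Whether the DNA at Lars2, at Cdk8 and at the kept region on chromosome 11 shown above holds copies of ribosomal RNA sequence was not tested, so these folds belong to the positions and may not be signal of the named genes. In an intron of Cdk8, a kinase of the Mediator complex, they were 185, 170, 167 and 165 (chr5:146260963-146261369). At Gphn, which encodes the scaffold protein gephyrin, they were 90.1, 80.7, 90.4 and 83.6, and at Camk1d, a calcium/calmodulin-dependent kinase, 46.7, 69.5, 62.4 and 54.2. The treatments overlapped in value at Gphn and Camk1d, while at Cdk8 the RNase R+ values were a little below. An intron of the long noncoding RNA Gm26561 (66.4, 78.6, 64.0 and 77.1) and an intron of Ttc21b, an intraflagellar transport gene (49.0, 57.1, 58.5 and 51.9) were among the 10 too, as was a region in Myo3a described below. At Ttc21b the expected level was over 3 times the background level in at least 1 list.

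Other strong kept regions were lower after RNase R. At Malat1, an abundant long noncoding RNA of nuclear speckles, the folds were 173, 178, 93.0 and 63.6 (chr19:5797907-5802776), a log2 ratio of the means of -1.16. At Neat1, the RNA scaffold of paraspeckles on the same chromosome, they were 31.7, 33.6, 18.2 and 16.7, a log2 ratio of -0.90. Fhl2, a LIM domain cofactor, had 99.3, 84.9, 59.0 and 73.0. In all 3 of these genes both RNase R+ values lay below both RNase R- values. With 2 libraries per group an exact permutation test cannot give a p below 0.33.

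The strongest lost regions lay in genes of varied roles. The intron of Zfp36l1, which promotes decay of mRNAs with AU-rich elements, had folds of 31.5 and 29.8 without RNase R (chr12:80110586-80111259) and no peak with it. Its summits were 57 and 58 fragments high, compared with the lowest called height of 8 in the RNase R+ lists. An untranslated exon of Ccn1, a secreted matrix protein, had 26.2 and 38.5 (chr3:145647347-145647673). Eif5, a translation initiation factor, had 27.1 and 16.6, and Hnrnpa2b1, an RNA-binding protein of mRNA processing, 19.9 and 18.4. Fos, the AP-1 transcription factor, had 16.8 and 21.1, and Vim, the intermediate filament vimentin, 17.6 and 21.9 near its start. Another region of Vim was called in both RNase R+ lists and so was not lost. Xpo1, the main export receptor for proteins and several RNAs, had 18.7 and 17.0, and Slc38a2, an amino acid transporter, 16.7 and 19.2. Introns of the adhesion genes Sdk2 (17.9 and 17.8) and Mdga2 (20.6 and 17.6) completed the 10.

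New regions were weaker. The highest lay in introns of the long noncoding RNA 9130204K15Rik (12 and 14.3 with RNase R) and of Gm17215 (30.7 and 9.38), and in an untranslated exon of Cyp4x1, a cytochrome P450 gene (10.0 and 19.2). Mxi1, an antagonist of Myc, had 9.34 and 16.4, and Fam71e2 had 9.36 and 12.7. Atp8a1, a phospholipid flippase, had 9.29 and 12.7, Corin, a serine protease that processes natriuretic peptides, 8.84 and 11.6, and Lsamp, a neuronal adhesion gene, 8.84 and 9.52. The antisense RNA genes 4732471J01Rik (9.38 and 11.1) and Gm33037 (8.79 and 10.6) had values in the same range. None of these 10 regions had a peak in an RNase R- list.

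**Figure D3:**
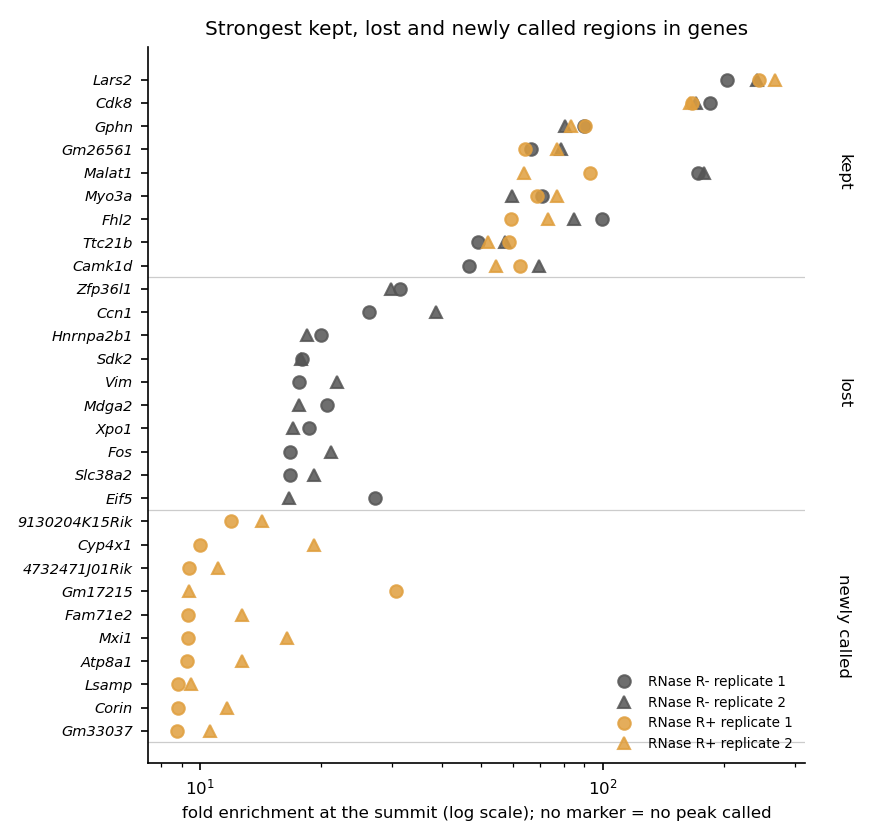
Fold enrichment at the summit (log axis) in the 4 KO libraries for 9 of the 10 strongest kept, the 10 strongest lost and the 10 strongest newly called regions in genes, ranked by the lower of the 2 values in the list pair, or the lowest of 4 for kept regions. Grey markers stand for RNase R-, orange for RNase R+, circles for replicate 1 and triangles for replicate 2, and a missing marker means that no peak was called. Malat1, with 173 and 178 without and 93.0 and 63.6 with RNase R, stood apart from Cdk8 and Lars2, whose 4 values lay close together.

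Some genes held several regions of 1 fate. Ptprd, a receptor tyrosine phosphatase of neurons that spans 2271 kb, held 13 lost and 2 kept regions. Csmd1 and Pde4d, of 1643 and 1504 kb, held 9 lost and 0 kept regions each. Sfi1, a centrosomal gene of 61.6 kb, held 5 kept and 2 lost, and Spaca6, a sperm gene of 15.9 kb, 4 kept and 1 lost. The 8 new regions of the long noncoding RNA Gm26870 on chromosome 9 had lower folds between 2.0 and 3.72, and in all 8 the expected level was over 3 times the background level, as it was in the 6 of Gm10717 at the same place. Gm20388, which held most regions of all (15 lost and 7 kept), is an annotated readthrough of 4435 kb over many other genes.

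Gene groups were set against all annotated genes, of whose 7581 regions in both RNase R- lists 913 (12%) were kept, 5377 (70.9%) were lost and 19.7% had a mean fold of 10 or more, with a median fold of 7.66. Housekeeping genes had the highest kept share. Of 28 regions in genes of translation and general housekeeping, 13 (46.4%) were kept and 13 lost, and of 43 in cytosolic ribosomal protein genes, 18 (41.9%) were kept and 15 lost. Their peaks were also strong without RNase R, with median folds of 16.0 and 12.6 and with 67.9% and 67.4% of regions at 10 or more. Ncl, the nucleolar protein nucleolin, kept all 3 of its regions, the strongest with 39.5, 35.9, 38.5 and 25.4. Hsp90ab1, a chaperone, had 41.2, 31.0, 23.7 and 25.1. Rpl17, of the large ribosomal subunit, had 48.8, 61.1, 39.0 and 24.7, and Rps16, of the small one, 33.0, 38.4, 17.4 and 17.2. Tubb5 (a tubulin), Hspa5 (a chaperone of the endoplasmic reticulum) and Eif5a, a translation factor carried by exportin 4, had lost regions only.

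Of 20 regions in nuclear noncoding RNA genes, 7 (35.0%) were kept and 10 lost, at a median fold of 8.67. Both regions of Malat1 were kept, as were the regions of Neat1 and of the signal recognition particle RNA genes Rn7s1 and Rn7s2, the latter with 12.5, 14.6, 21.3 and 14.8. Gas5, a host of small nucleolar RNAs, kept 1 of 2 regions (21.2, 25.7, 12.5 and 16.7). The single region of Rn7sk, an RNA that holds back elongation of RNA polymerase II, was lost, as were those of the imprinted Meg3 and Rian. Rn7s1 and Rn7s2 are near-identical copies, and the authors removed reads that mapped to several places. Reads that fit both copies alike would therefore not enter these peaks.

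Genes of the fibroblast cytoskeleton and matrix were intermediate in kept share, and in fold too, with 39.2% and 32.7% of their regions at 10 or more. Of 51 regions in actin cytoskeleton genes, 13 (25.5%) were kept and 29 lost. Zyx, a focal adhesion protein, had 36.5, 37.6, 29.1 and 21.8, and Cald1, an actin-binding regulator, kept 3 of 6 regions (the strongest with 17.4, 17.0, 15.7 and 13.5). Both regions of Actb and all 3 of the myosin light chain gene Myl6 were lost. Of 55 regions in extracellular matrix genes, 10 (18.2%) were kept and 32 lost. Fn1, fibronectin, had 12.5, 11.6, 16.1 and 11.1, with overlapping values. All 5 regions of Hspg2, the proteoglycan perlecan, and all 4 of Thbs2, a thrombospondin, were lost.

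Immediate early and Myc genes kept 4 of 21 regions (19%) and lost 13, although their median fold was 10.1. Of the AP-1 genes, Fos and Junb had lost regions only (Junb 15.7 and 20.2), while Fosl2 kept 2 of 4 regions and Fosl1 lost 1 of 2. Ier5 (13.8 and 14.9) and Myc had lost regions only, and Nr4a1, a nuclear receptor, kept 1 of 2. Srf, the serum response factor, was kept with 18.5, 28.9, 22.8 and 11. Of 37 regions in 40 genes known to host circular RNAs, 4 (10.8%) were kept and 29 lost. These were in Ankrd17 (27.0, 26.4, 16.4 and 15.9), Pvt1, Rims2 and Slc8a1, the sodium/calcium exchanger, which also lost 3 regions, the strongest with 12.5 and 11.3. The kept share of circular RNA hosts thus lay close to that of all genes.

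Genes of RNA export and R-loop resolution kept 1 of 17 regions (5.88%), in the RNA helicase gene Dhx9, and lost 14. Lost regions included those of Ddx39b, an RNA helicase of mRNA export (9.11 and 9.99), and Rnaseh1, which cuts the RNA of hybrids (8.01 and 7.32). Olfactory and vomeronasal receptor genes, silent in fibroblasts, kept 2 of 42 regions (4.76%). Zinc finger protein genes kept 14 of 108 (13.0%), close to all genes. The 67 replication-dependent histone genes held no region in both RNase R- lists. These counts describe the lists, and no test of a list was run.

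The targeted gene Xpo4 held 2 regions, 1 of them lost (chr14:57649277-57649578, 6.51 and 9.49), and no peak after RNase R. Of the other host genes of circular RNAs that the study followed by imaging, Hipk3 held none, Wwc1 held 2 without RNase R, and Adarb1 held 2, of which 1 was lost (6.94 and 5.8). Specc1 held 7 regions, 3 of them lost with folds between 4.42 and 8.44, and 1 called in RNase R+ replicate 2. Nfix held 6 regions, 1 of them in RNase R+ replicate 2. None of these genes had a region in any RNase R- list and any RNase R+ list.

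The DNA at the summits differed between the treatments in runs of a single base. In the 300 bp around each summit on nuclear chromosomes, a run of 12 or more A (on either strand) was present at 14.7% and 15.5% of RNase R- peaks. It was present at 2.03% and 1.62% of RNase R+ peaks, and in 3.63% of 132381 windows placed every 20000 bp along the genome. The RNase R- mean was thus 8.25 times the RNase R+ mean, and the genome lay between the treatments (exact permutation test, two-sided, n = 2 per group, p = 0.33). The motif searched was A repeated, and its complement T.

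The kept share followed the length of the run. It was 19.4% and 16.0% at peaks whose longest run of A or T was at most 5 bases, 9.71% and 8.46% at 6 to 8 bases, and 4.57% and 4.23% at 9 to 11. At 20 bases or more, 23 of 1251 peaks (1.84%) and 13 of 1551 (0.838%) were kept. Peaks with a run of 12 or more were kept in 2.79% and 1.50% of cases, compared with 14.9% and 12.3% of those without. Recovery in the other RNase R- list was similar for them, with 52.3% and 40.6% against 54.6% and 45.1%. Among peaks with a fold between 10 and 15, 7.05% and 3.65% of those with a run were kept, compared with 30.5% and 24.6% of those without. Nav2 (13.4 and 19.5), whose sequence is given above, was an example of a strong peak with such a run that was lost.

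**Figure D4:**
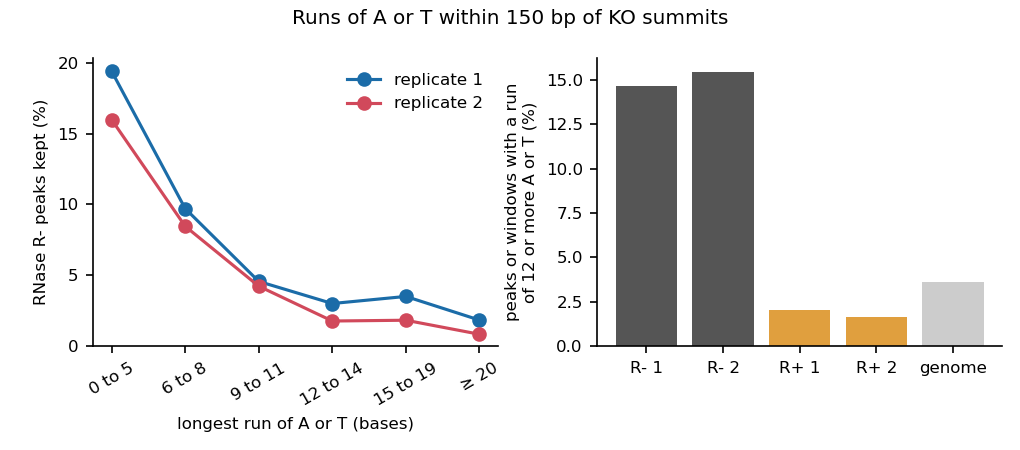
Left, share of KO RNase R- peaks that were kept (%) by the longest run of A or T within 150 bp of the summit, 1 line per replicate. Right, share of peaks with a run of 12 or more (%) in the 4 KO lists and in windows along the genome. The kept share was 19.4% and 16.0% at runs of at most 5 bases and 1.84% and 0.838% at 20 or more.

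Purine repeats showed 2 patterns. A run of at least 30 purines on 1 strand was present at 54.6% and 54.5% of RNase R- peaks and 52.8% and 54.5% of RNase R+ peaks, compared with 3.77% of genome windows. The groups overlapped (exact permutation p = 0.67), and each lay far above the genome. The mean difference of -0.914 percentage points was -16.6 among peaks with a fold of 10 or more and -9.16 among peaks called in both lists of a group, so the likeness held for weak peaks more than for strong ones. The repeat units differed. AAAG repeated 3 times was present at 21.8% and 22.3% of RNase R- peaks and 13.5% and 12.2% of RNase R+ peaks. GAA repeated 3 times was present at 12.1% and 12% against 18.2% and 23.3%, and GGA at 11.9% and 11.5% against 18.8% and 22.4%. The genome had 0.773%, 1.42% and 1.23%. In each of the 3 comparisons the groups did not overlap (exact permutation test, two-sided, n = 2 per group, p = 0.33). The AAAG difference, -9.24 percentage points on average, was -23.4 at a fold of 10 or more.

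Over all folds, the fates of single peaks had the same direction. Peaks with GAA were kept in 21.7% and 24.1% of cases and those without in 11.9% and 8.79%. Peaks with GGA were kept in 22.1% and 23.3%, and those without in 11.9% and 8.98%. At a fold of 15 or more this was not so in replicate 1, where 56.8% of 44 peaks with GAA were kept against 72.8% of those without, and 70.2% of 47 with GGA against 71.5%. Peaks with AAAG were kept in 9.84% and 7.78%, compared with 14.0% and 11.5% without, although they were found again more often in the other RNase R- list (67.4% and 53.9%, compared with 50.6% and 41.6%). CA repeated 4 times was less common than in the genome (8.60%) without RNase R, at 7.91% and 8.32%, and more common with it, at 12.1% and 12.6%. Of the RNase R+ peaks with CA, 69.6% and 72.4% were new, compared with 42.2% and 37.8% of the others. The CA difference of 4.20 percentage points was 0.962 at a fold of 10 or more and 1.75 among peaks called in both lists. The units overlap, since a window can hold several, and each was searched on both strands.

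**Figure D5:**
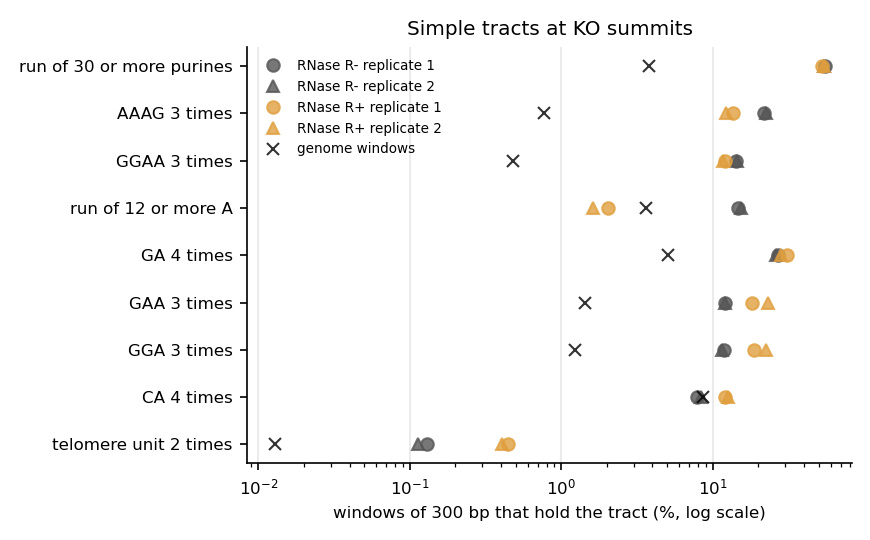
Share of 300 bp windows at KO summits that hold each tract (%, log axis), with grey markers for RNase R-, orange for RNase R+, circles for replicate 1, triangles for replicate 2 and crosses for windows along the genome. Runs of A were present at 14.7% and 15.5% of peaks without and 2.03% and 1.62% with RNase R, while runs of 30 or more purines lay between 52.8% and 54.6% in all 4 lists.

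Among reproducible regions, the same tracts were seen by fate. A run of A was present in 1.53% of 1503 kept, 18.4% of 10305 lost and 0.926% of 324 new nuclear regions. AAAG was present in 13.2%, 30.1% and 5.25%, GAA in 22.3%, 10.6% and 16.7%, GGA in 22.1%, 9.50% and 17.6%, and CA in 5.52%, 6.35% and 21.9%. In GAA and GGA new regions lay between kept and lost ones, and their share with CA was the highest of the fates. The telomere unit TTAGGG repeated 2 times was present in 23 of the kept regions, 5 of the lost and 0 of the new. Peaks with it were strong, with a median fold of 31.0 in RNase R- replicate 1 against 6.94 without it. At a fold of 15 or more in that replicate, 23 of 25 peaks with the unit were kept, against 70.2% of the others. Median GC content was 47.7% in kept, 41.7% in lost and 43.3% in new regions. The kept and lost regions differed in runs of A within each class, with 1.34% against 11.6% in promoters, 0.855% against 8.90% in exons, 2.36% against 20.7% in introns and 1.04% against 18.9% outside genes. They differed in GC content as well, with 56.8% against 52.3% in promoters and 43.7% against 40.0% outside genes.

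Peak borders followed the restriction digest. A peak start lay within 5 bases of a cutting site (TTAA for the enzyme MseI, CTNAG for the enzyme DdeI, AGCT for the enzyme AluI and GATC for the enzyme MboI) at 77.5% and 78.9% of RNase R- peaks and 69.1% and 69.3% of RNase R+ peaks, compared with 18.9% to 19.9% of positions 1000 bp further on. Peaks held 6.92 and 6.77 sites per kb without RNase R and 7.16 and 6.07 with it, compared with 18.2 in windows along the genome. Peaks of both treatments thus lay in stretches with fewer sites than the genome. The part of the digest in the tracts at summits was not tested.

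Peaks with an expected level over 3 times the background level made up 3.97% and 3.91% of RNase R- lists and 6.59% and 7.22% of RNase R+ lists (exact permutation p = 0.33). They were 21.9% of kept, 7.15% of lost and 25.3% of new regions. The mitochondrial genome was a single peak over its whole length in the 4 KO lists (461, 529, 477 and 585). In WT it was a peak of 69.7 and 88.6 without RNase R, and after RNase R only fragments with folds up to 3.38 were left. Of the nuclear regions, 4 kept ones shared stretches of 25 bases with the mitochondrial genome within 150 bp of the summit, and 0 lost or new ones did. A pair of them lay in Myo3a, the stronger with 70.5, 59.6, 68.6 and 77.2, and the share of matching stretches was 61.6% there and 100% at a region on chromosome 1 (chr1:24611537-24616193).

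In WT cells the kept share was lower. It was 3.58% and 6.73%, both below the KO values of 13.2% and 10.7%, and the new share was 61.6% and 65.6%, both above the KO values of 45.6% and 42.4%. Untreated WT peaks were also found again less often in the other untreated WT list, in 17.1% and 30.8% of cases against 54.3% and 44.4% in KO. The WT RNase R+ lists held 271 and 352 peaks, and the RNase R- lists 3885 and 2171. The part of reproducibility and list size in the kept share was not tested. At WT peaks with a fold of 30 or more, 12 of 30 and 13 of 31 were kept, compared with 72 of 73 and 70 of 74 in KO. Runs of A had the same direction, with 13.8% and 11.2% without and 0% in both lists with RNase R, of 260 and 341 nuclear peaks. So did AAAG (14.6% and 13.9% against 3.08% and 2.35%), GAA (12.9% and 11.2% against 18.5% in both) and CA (7.01% and 6.95% against 10.4% and 14.1%). The background level of the WT libraries was lower (0.425 to 0.558), so the genotype and the background level cannot be told apart in these differences. By the read counts that the study reported, both WT RNase R+ pull-downs had far more uniquely mapped reads than both WT RNase R- ones. The KO pull-downs were close to each other in depth. RNase R and depth therefore cannot be told apart in the WT comparison. An exact permutation test over 2 libraries per group could give no p below 0.33.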

How the data were processed

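The peaks of 8 S9.6 immunoprecipitates were analysed, and the 8 inputs and the E. coli reads were not. The authors aligned reads to GRCm38 with Bowtie2, removed duplicates, reads that mapped to several places and those with many mismatches (SAMtools 1.1 in the submitters' processing notes), and called peaks in each replicate with MACS2 at a q of 0.001. The control library is not given in the sources used here. In the deposited lists the fold enrichment is a ratio (1 is added above and below), p and q are deposited as −log10 values, and the deposited score column was not used. Deposited values with no read count were turned into summit heights as the whole number that fits fold and p under a Poisson distribution (relative tolerance 0.0001), which was found for 100% of peaks. On simulated data 4977 of 4977 heights were recovered, 9 of 4977 heights that were not whole were called whole, and overlaps equalled those of bedtools 2.31.1 in 499 of 499 cases.

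Summits were placed at the start of the peak plus the offset in the last column and annotated with GENCODE M21. Shares were compared with two-sided exact permutation tests over libraries, by going through all arrangements (numpy 2.4.6). The Poisson fit of the summit heights used scipy 1.17.1. Regions and genes were named by rule: the 10 regions in genes and 5 outside genes with the highest lowest fold per fate, the 5 genes with most regions, and the strongest members of each gene list. The members, lists and tests were chosen with earlier results of these data known, and the tracts were chosen after the sequences had been seen. Further members of the gene lists were named after their counts had been seen. Some genes that the rule names and 1 sequence are not reported here. Alternatives were another overlap rule, a fold of 10 or more, a common p limit (−log10 p of 5.66), leaving out peaks over 3 times the background level, other promoter widths and leaving out a replicate. Replicate numbers come from the titles. Kept shares of crossed pairs (12% and 11.8%) lay between those of same-numbered pairs, so the numbers were taken as names. Lists hold calls only, so the depth of sequencing entered no calculation and limits which weak peaks could be called.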

Additional observations from a re-analysis of the deposited data

Results flagged for a closer look

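In 3 measures the effect of RNase R had 1 sign in both KO replicates and the opposite sign in both WT replicates. The differences between genotypes were not tested, since 2 libraries per group allow no p below 0.33. In WT the sequencing depth also differed between the treatments, so RNase R and depth cannot be told apart there.

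The promoter share of summits was 1.87 percentage points higher after RNase R in KO and differed by -1.12 percentage points in WT (6.8% and 8.06% without, 6.64% and 5.97% with RNase R). With protein-coding genes only, the KO difference was 0.644 percentage points, and it was 1.68 in replicate 1 and -0.39 in replicate 2, so the sign was then not shared by the KO replicates. The share of peaks over 3 times the background level was higher after RNase R in both genotypes. It was 39.5% of WT RNase R+ and 8.62% of WT RNase R- peaks on average, against 6.91% and 3.94% in KO. Its part in the promoter difference was not tested.

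GA repeated 4 times was present at 3.06 percentage points more peaks after RNase R in KO (26.8% and 26.0% without, 30.9% and 28.0% with). In WT the difference was -9.31 percentage points (15.4% and 15.5% without, 5.77% and 6.45% with).

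At kept peaks, the median log2 of the RNase R+ fold over the RNase R- fold was -0.17 on average in KO (3453 and 3425 peaks) and 0.27 in WT, over 139 and 146 peaks.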

How the results depend on the processing

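Of 114 values recomputed for 19 results, 97 counted as the same, 11 moved and 6 reversed. Reversed values took the opposite sign. Moved values kept their sign but differed in size by more than the limit set for them. Tested differences were judged by direction only, so some that counted as the same differed in size, as given in the report. At a fold of 10 or more, the mean kept share was 31.0% instead of 11.9%, the new share 15.1% instead of 44.0%, and the excess of promoters over DNA outside genes in kept share 21.6 instead of 7.17 percentage points. For these shares the limit applied only to the list whose peaks were followed. With weaker peaks left out of all 4 lists, there were 245 kept, 1026 lost and 34 new regions. A region called lost in this setting may hold a weaker RNase R+ peak, and a new one a weaker RNase R- peak. The GC difference of these kept and lost regions was 8.69 percentage points instead of 6 (6.71 over whole regions without the limit). With overlap in either list of the other treatment, the kept share was 17.7% and the new share 31.8%, and with summits within 250 bp the new share was 47.4%. The reversed values were small. The exon share difference ranged from -0.28 to 0.52 percentage points with a replicate left out and was -0.011 with promoters of 2000 bp. The difference outside genes ranged from -3.29 to 1.1 and was 0.184 with protein-coding genes only. That of purine runs ranged from -1.86 to 0.035 and was 0.302 without peaks over 3 times the background level. Leaving out replicate 1 or 2 put the promoter excess in kept share at 3.80 or 10.5 percentage points. With the replicate as a block, each difference equals the main one by construction, so its size and sign could not change. Such values are among those that counted as the same and say nothing about robustness. For the log2 ratio of peak numbers of -2.23, the exact sign-flip test gave p = 0.5, the smallest possible. Of 77 named regions, 60 had the same fate at a fold of 10 or more, 77 at a common p limit, 72 without peaks over 3 times the background level and 72 with summits chained within 250 bp. Weak peaks limit these results, since below a fold of 5 only 37.8% and 27.7% of RNase R- peaks were found again in the other untreated list.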
